A study of Danio rerio with 32 samples.

Results

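Untraced V2a interneurons taken 3 weeks after spinal cord injury (G3W, 5 libraries) were compared with untraced V2a interneurons of uninjured zebrafish (Gcon, 6 libraries). The comparison covers the genes that reached 1 FPKM (fragments scaled by gene length and by library size) in at least 5 of these 11 libraries. These are 16507 of the 42370 genes in the deposited table, and 13716 of them have a symbol. A gene seen in all G3W libraries and in no Gcon library passes this rule, so a count over the members that passed is not evidence of a difference. Of the genes called below, scn4ab, CYP26B1, lhx8b, ENSDARG00000082439, Novel01966 and Novel05904 were under 1 FPKM in all 6 Gcon libraries. They are members through G3W alone, and their lack of overlap follows from the rule.

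All fish carried a transgene that makes V2a neurons express green fluorescent protein, and reporter-positive cells were sorted from spinal cord segments 1 to 7. Cells were split by a rhodamine dextran tracer that axons take up and carry back to the cell body. G cells lacked the tracer; after injury the labels call them neurons without a regrown axon, and in uninjured fish non-labeled neurons. Side comparisons used untraced cells 8 weeks after injury (G8W, 5 libraries), traced cells with a regrown axon 3 weeks after injury (D3W, 5 libraries) and traced cells of uninjured fish (Dcon, 5 libraries). Tissue of 20 fish was collected per condition, but the labels do not say whether each library had its own fish. The p-values therefore speak only of the spread among these libraries, and that spread may be technical. The G label does not say whether a cell's axon was cut or grew to another target, and a sham operation group was not used here.

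V2a interneurons are excitatory, glutamatergic spinal neurons that drive locomotion through their contacts with motor neurons. Zebrafish regrow axons across a spinal lesion, and V2a neurons are among the cells that do so. In other vertebrates, too, neurons whose axons are cut are known to switch on injury transcription factors, growth-associated cytoskeletal genes and immune signals.

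The libraries carried markers of V2a neurons in both groups. LHX3, a V2a and motor neuron transcription factor, was at 33.8, 49.5, 37.3, 21.96 and 52.2 FPKM in G3W, against a lowest, median and highest value of 19.2, 47.6 and 73.9 FPKM in Gcon, and the groups overlapped. SLC17A6 (ENSDARG00000041150), a vesicular glutamate transporter, averaged 58.9 ± 21.6 FPKM in G3W and 78.0 ± 30.9 FPKM in Gcon, and the adjusted p were 0.989 for LHX3 and 0.953 for SLC17A6. Of 13 genes listed for V2a and glutamatergic identity, 8 were members, and 0 passed the test. SOX14, a transcription factor gene of this list, was at 128 to 249.7 FPKM in G3W, above the 52.7 to 124 FPKM in Gcon, yet its adjusted p was 0.791. Inferred depth was 13.2 to 25.5 M fragments in G3W and 13.2 to 26.9 M in Gcon, so that 3 fragments in a gene of 1 kb equal at most 0.228 and 0.227 FPKM. A level of 1 FPKM or more was reached by 17233 ± 637 genes in G3W and 14670 ± 2466 in Gcon (SD, n = 5 and 6; difference 2563, exact two-sided permutation test p = 0.0433). Leaving out any library other than G3W replicate 4 or Gcon replicate 4 took this p to between 0.0556 and 0.0857 (exact permutation tests). Gcon replicate 1 had the fewest such genes of the 11 libraries, 10929, and Gcon replicate 4 the most, 18328. Low genes listed at 0 may therefore have been missed in some Gcon libraries, which was not tested. The 13 mitochondrial protein genes held 7.96% ± 2.18 of FPKM in G3W and 7.09% ± 2.46 in Gcon (exact permutation test p = 0.541).

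Few genes passed the test, and most of those were higher after injury. In a limma model of log2(FPKM + 1) over all 32 libraries, adjusted by Benjamini-Hochberg over 22552 genes, 12 members rose and 3 fell in G3W. Over all genes tested 18 rose, 0.0798% of them, and 3 fell, 0.0133%. Among the members these are 0.0727% and 0.0182%. At an unadjusted p under 0.05, 869 members (5.26%) were higher and 327 (1.98%) lower. In 152 members (0.921%) every G3W library lay above every Gcon library, and in 71 (0.43%) every one lay below. Over all 22552 genes tested, the counts at an unadjusted p under 0.05 were 1182 higher and 399 lower. Those without overlap were 212 above and 71 below. The median difference over all members was 0.14 log2, against 0.01 after quantile normalization and −0.03 when detected genes entered as a covariate.

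A sodium channel gene was among the best-supported differences. scn4ab (ENSDARG00000034588) encodes a pore-forming alpha subunit of voltage-gated sodium channels, known in zebrafish from muscle. It was at 43.8, 31.7, 4.595, 127 and 101 FPKM in G3W and was listed at 0 in all 6 Gcon libraries. The fitted difference was 4.83 ± 0.712 log2 units (adjusted p = 0.000666), a size that depends on the added 1 because Gcon is at 0. The call held in 24 of 25 alternatives, and with only the groups compared and a replicate block its adjusted p was 0.0598. Of the 11 sodium channel genes that were members, scn4ab alone passed. SCN8A (ENSDARG00000005775), a neuronal alpha subunit, was at 27.6 ± 7.22 FPKM in G3W and 23.7 ± 7.64 FPKM in Gcon (SD, n = 5 and 6). The 18 skeletal muscle genes looked up after this result was seen, among them fast myosin, actin and creatine kinase genes, summed to 2.92 to 16.97 FPKM in G3W and 4.89 to 20.9 FPKM in Gcon. In G3W replicate 4, where scn4ab was at 127 FPKM, the highest of the 18 was ACTA1 (ENSDARG00000036371), at 10.3 FPKM, followed by atp2a1 at 4.18 FPKM. That actin gene was also at 17.2 FPKM in Gcon replicate 3, where scn4ab was listed at 0, and the part of muscle RNA in the scn4ab values was not tested.

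**Figure D1:**
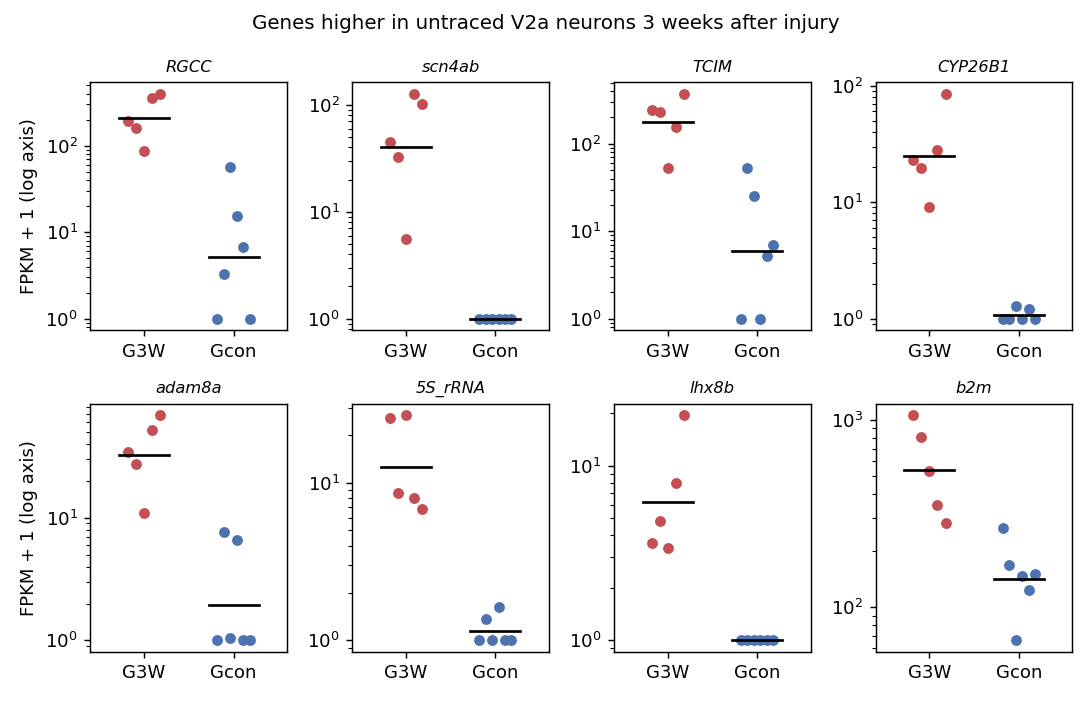
The FPKM + 1 of each named gene that rose in G3W, by library, on log axes of their own; points are the 5 G3W and 6 Gcon libraries and bars their geometric means. scn4ab, CYP26B1 and lhx8b are near or at 0 in Gcon, while b2m is expressed in all 11 libraries; TCIM in G3W replicate 3 (51.5 FPKM) lies just under the highest Gcon library (51.7 FPKM).

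Genes for retinoic acid breakdown, cell regulation and transcription also rose. CYP26B1 (ENSDARG00000077121) encodes an enzyme that breaks down retinoic acid, a signal that patterns the spinal cord. It was at 21.8, 18.5, 8.07, 26.8 and 84.4 FPKM in G3W, against a lowest, median and highest value of 0, 0 and 0.272 FPKM in Gcon. CYP26B1 rose by 4.06 ± 0.673 log2 units (adjusted p = 0.00231). Its lack of overlap followed from the rule for members, since no Gcon library reached 1 FPKM. The call was lost in 2 of 25 alternatives, namely a test against a log2 fold of 1 (adjusted p = 0.222) and the compared groups alone with a replicate block (adjusted p = 0.0613).

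lhx8b (ENSDARG00000042145) is a LIM homeobox transcription factor gene. It was low, at 2.62, 3.81, 2.39, 6.92 and 18.4 FPKM in G3W, and listed at 0 in all Gcon libraries. Its fitted difference was 2.22 ± 0.400 log2 units (adjusted p = 0.00906), again dependent on the added 1. The call held without any single library and was lost in 6 other alternatives. Among these were only the groups compared (adjusted p = 0.128) and detected genes as a covariate (0.0524).

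RGCC (ENSDARG00000035810) and TCIM (ENSDARG00000076858) encode small regulators, in mammals tied to the cell cycle and to Wnt signalling. RGCC was at 190.1, 161, 85.1, 359 and 399 FPKM in G3W, against a lowest, median and highest value of 0, 4.01 and 55.04 FPKM in Gcon. It rose by 5.10 ± 1.05 log2 units (adjusted p = 0.0423), with every G3W library above every Gcon library. TCIM was at 243, 228, 51.5, 155 and 374 FPKM in G3W, against a lowest, median and highest value of 0, 5.03 and 51.7 FPKM in Gcon. It rose by 4.66 ± 0.922 log2 units (adjusted p = 0.0294), with 4 of 5 G3W libraries above all Gcon libraries. Both calls are near the threshold, as each was lost in 15 of 25 alternatives. With detected genes as a covariate RGCC lost its call (adjusted p = 0.202) and TCIM kept it (0.0373). RGCC lost its call without Gcon replicate 1, 2, 5 or 6 or G3W replicate 1, 2, 4 or 5 (adjusted p up to 0.14), and TCIM without Gcon replicate 1, 4, 5 or 6 or those same G3W replicates (up to 0.118).

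Of the surface and immune genes, b2m and adam8a passed. b2m (ENSDARG00000053136) encodes beta-2 microglobulin, the light chain of class I antigen-presenting molecules. It was at 1057, 808, 535, 350.4 and 282 FPKM in G3W, against a lowest, median and highest value of 65.3, 147 and 263 FPKM in Gcon. All G3W libraries lay above all Gcon libraries, and b2m rose by 1.94 ± 0.385 log2 units (adjusted p = 0.0294). The call was lost in 11 of 25 alternatives. These were the leave-outs of Gcon replicate 3, 5 or 6 and of G3W replicate 1 or 2 (adjusted p up to 0.126), no filter (0.0570), no trend or robust fitting (0.0839), detected genes as a covariate (0.0835), only the groups compared (0.0636), these with a replicate block (0.0613), and a test against a log2 fold of 1 (adjusted p = 1).

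adam8a (ENSDARG00000001452) encodes a membrane metalloprotease known from leukocytes in mammals. It was at 33.4, 26.3, 9.86, 51.3 and 67.6 FPKM in G3W, against a lowest, median and highest value of 0, 0.0194 and 6.63 FPKM in Gcon. The groups did not overlap, and adam8a rose by 3.73 ± 0.806 log2 units (adjusted p = 0.0492). Of the named calls it was lost in the most alternatives, 16 of 25, among them the leave-outs of Gcon replicate 1, 3, 5 or 6 and of G3W replicate 1, 2, 4 or 5 (adjusted p up to 0.149). It was also lost with detected genes as a covariate (adjusted p = 0.237).

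A 5S ribosomal RNA gene and an assembled transcript also rose, and no role can be given for the latter. One 5S ribosomal RNA gene (5S_rRNA, ENSDARG00000082439) was at 24.7, 7.63, 25.8, 7.02 and 5.79 FPKM in G3W and at 0 to 0.629 FPKM in Gcon (3.05 ± 0.494 log2 units, adjusted p = 0.00188). Its value is uncertain, since 5S genes come in near-identical copies among which reads can be split. The assembled transcript Novel01966 was at 4.23, 4.48, 8.26, 9.29 and 7.68 FPKM in G3W and at 0 in 5 of the 6 Gcon libraries (2.38 ± 0.386 log2 units, adjusted p = 0.00188). Both calls were lost with only the groups compared and a replicate block (adjusted p = 0.209 for the 5S_rRNA gene and 0.300 for Novel01966) and against a log2 fold of 1 (0.551 and 1). Also past the test were Novel05904 (1.91 ± 0.301 log2 units, adjusted p = 0.0017) and si:ch73-204p21.2 (3.01 ± 0.649 log2 units, adjusted p = 0.0492).

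A gene of fat synthesis had the smallest p of the 3 members that fell. DGAT2 (ENSDARG00000018846) encodes the enzyme of the last step of triglyceride synthesis. It was listed at 0 in 4 G3W libraries and at 0.0864 FPKM in the other, against a lowest, median and highest value of 0, 8.52 and 16.3 FPKM in Gcon. It fell by 2.24 ± 0.441 log2 units in the fit (adjusted p = 0.0294), and Gcon replicate 5, at 0, overlapped G3W. The call was lost in 15 of 25 alternatives, among them the leave-outs of Gcon replicate 1, 2 or 3 and of G3W replicate 1, 2, 3 or 4 (adjusted p up to 0.101). The other members that fell were Novel04236 and ENSDARG00000113723, which has no symbol in the table used. ENSDARG00000113723 had the larger fitted difference, −4.04 ± 0.841 log2 units (adjusted p = 0.0433). It averaged 2.89 ± 4.72 FPKM in G3W and 71.5 ± 58.9 FPKM in Gcon, and 4 of 5 G3W libraries lay below every Gcon library.

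Other genes with lower values in G3W, named for their small p among genes with a symbol and sufficient level, did not pass, and their values are given without a call. AQP3, a water and glycerol channel gene, was at 0, 0.239, 0, 1.74 and 0.0841 FPKM in G3W, against 2.79, 14.8 and 33.5 FPKM as lowest, median and highest in Gcon (adjusted p = 0.0637). ALDOC, the brain form of the glycolytic enzyme aldolase, averaged 424 ± 115 FPKM in G3W and 1155 ± 459 FPKM in Gcon (adjusted p = 0.0895). In both genes every G3W library lay below every Gcon library. The same held for GRM3, a metabotropic glutamate receptor gene, at 0.620 ± 0.437 and 5.09 ± 3.74 FPKM in G3W and Gcon (adjusted p = 0.0895).

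BAIAP2 and CAMK2A encode an actin regulator and a kinase of the synapse. BAIAP2 averaged 10.1 ± 7.28 FPKM in G3W and 150.3 ± 143 FPKM in Gcon, without overlap (adjusted p = 0.145). CAMK2A averaged 7.76 ± 10.5 FPKM in G3W and 55.04 ± 34.9 FPKM in Gcon, with G3W replicate 4 inside the Gcon range (adjusted p = 0.186). rtn4rl2b, of the Nogo receptor family, was at 2.07 ± 1.51 and 63.6 ± 54.3 FPKM in G3W and Gcon (adjusted p = 0.0966), and uraha, an enzyme gene of urate breakdown, at 1.70 ± 2.07 and 30.4 ± 26.0 FPKM (adjusted p = 0.0895).

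**Figure D2:**
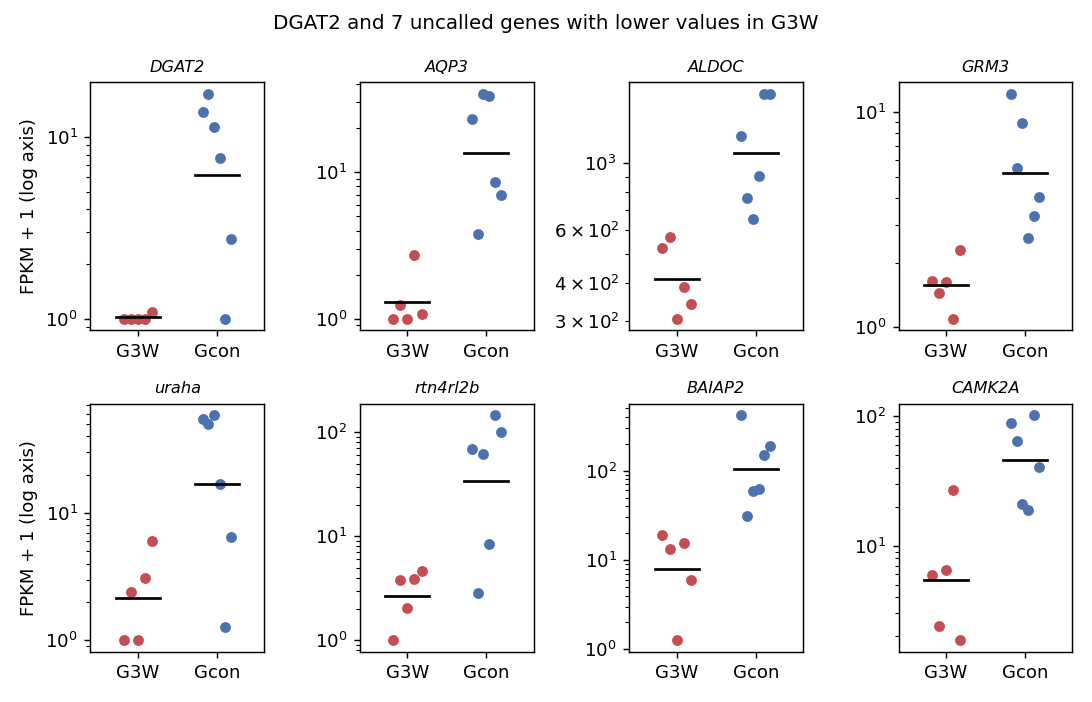
The FPKM + 1 of DGAT2, which fell, and of 7 named genes with lower values in G3W that did not pass, by library, on log axes of their own; bars are geometric means of 5 G3W and 6 Gcon libraries. AQP3, ALDOC, GRM3 and BAIAP2 show no overlap between the groups, and none of the 7 passed the adjusted test.

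Of the named genes that rose in untraced neurons, 4 also passed the test in traced neurons at 3 weeks. The D3W and Dcon libraries are not those of the untraced comparison. The labels do not say whether traced and untraced cells came from the same fish, so the comparisons may not be independent. scn4ab differed there by 4.31 ± 0.743 log2 units (adjusted p = 0.00258), CYP26B1 by 3.47 ± 0.703 (0.0120), TCIM by 6.18 ± 0.963 (0.000833) and b2m by 1.70 ± 0.402 (0.0337). scn4ab was at 8.72, 18.1, 59.8, 27.6 and 8.78 FPKM in D3W and at 0 to 0.498 FPKM in Dcon. RGCC at 3.23 ± 1.101 and adam8a at 3.12 ± 0.842 log2 units did not pass in traced cells (adjusted p = 0.158 and 0.0647).

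Other genes were near 0 in the traced comparison. lhx8b differed by 0.49 ± 0.418 log2 units between D3W and Dcon, the 5S_rRNA gene ENSDARG00000082439 by −0.12 ± 0.516 and DGAT2 by −0.09 ± 0.461. A level of 1 FPKM was reached by 7755 to 16366 genes in D3W and 10956 to 13838 in Dcon, against 16193 to 17746 in G3W. Low genes may therefore be missed in traced libraries, which was not tested. For DGAT2 the traced cells were low in both groups, at 0 to 1.37 FPKM in D3W and 0 to 1.89 FPKM in Dcon. The difference between the untraced and the traced change was tested by an interaction term. It did not pass for any of these named genes or for Novel01966, which differed by 0.11 ± 0.404 log2 units in traced cells. The smallest adjusted p was 0.437, for both ENSDARG00000082439 and Novel01966. Of all genes tested 1 passed, 0.00443%. It was another 5S_rRNA gene, ENSDARG00000108569, with a difference of 6.32 log2 units (adjusted p = 0.0317). Its untraced difference was 0.93 ± 0.759 log2 units, with 27.5 to 113 FPKM in G3W and 7.82 to 75.9 FPKM in Gcon. In traced cells it was listed at 0 in all D3W libraries and at 20.1 to 94.0 FPKM in Dcon. This call was lost without any 1 of 15 of the 21 libraries in turn, every D3W library among them, and the near-identical 5S copies make it uncertain.

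At 8 weeks most named genes that rose at 3 weeks still stood above Gcon in the fit. G8W and G3W are both set against the same Gcon libraries, so their differences are only given side by side. Against Gcon, scn4ab differed by 4.08 ± 0.712 log2 units in G8W (adjusted p = 0.0172), TCIM by 4.83 ± 0.922 (0.0319) and CYP26B1 by 3.39 ± 0.673 (0.0434). b2m differed by 2.03 ± 0.385 (0.0319) and DGAT2 by −2.24 ± 0.441 (0.0433). RGCC at 4.77 ± 1.05 and adam8a at 2.73 ± 0.806 did not pass (adjusted p = 0.142 and 0.407). Nor did lhx8b at 0.45 ± 0.400 and the 5S_rRNA gene ENSDARG00000082439 at 0.38 ± 0.494 (0.923 and 0.972). Between G8W and G3W 1 gene of those tested passed, 0.00443%, and it was lower in G8W. It was Novel01966, at 0 to 0.0717 FPKM in G8W (−2.44 log2 units, adjusted p = 0.0129). lhx8b was listed at 0 in 4 G8W libraries and at 5.42 FPKM in the other, with a G8W minus G3W difference of −1.77 log2 units that did not pass (adjusted p = 0.431). Novel01966 lost its call without G3W replicate 4 or without G8W replicate 1, 4 or 5.

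**Figure D3:**
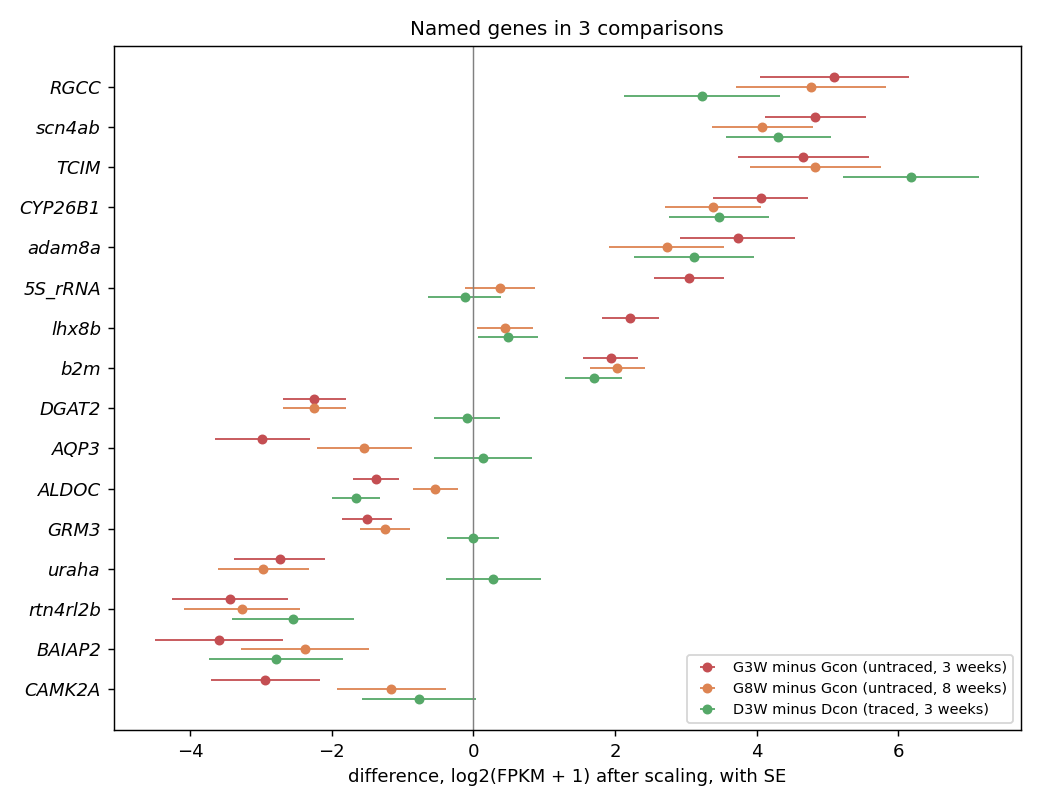
Differences with SE on the log2(FPKM + 1) scale for the genes of the 2 plots by library, in untraced cells at 3 weeks and 8 weeks (both against the same Gcon libraries) and in traced cells at 3 weeks (against Dcon). scn4ab, TCIM, CYP26B1 and b2m are to the right of 0 in all 3, while lhx8b, the 5S_rRNA gene and DGAT2 lie near 0 in traced cells.

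Among the gene lists, the cytosolic ribosomal protein genes had the most even shift. Of 81 such genes 79 were members, and 78 of them had a higher fitted value in G3W, against 58.4% of all members. Their median difference was 1.04 log2 units, against 0.14 over all members, and lay between 0.93 and 1.33 in the alternatives. In 62 the unadjusted p was under 0.05 on the higher side, against 5.26% of all members, and in 27 all G3W libraries lay above all Gcon libraries, against 0.921% of all members. Of the 79, 0 passed the adjusted test, where the smallest adjusted p was 0.29. Ribosomal protein genes have processed copies and paralogues, and their values share the scaling of each library, so they are not independent of each other.

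Ribosomal genes among those of smallest p show the size of the shift. RPL5 (ENSDARG00000020197), of the large subunit, was at 247, 186, 175, 206 and 228 FPKM in G3W and at 59.9, 70.0 and 114 FPKM as lowest, median and highest in Gcon. RPL36AL averaged 284 ± 24.6 FPKM in G3W and 114 ± 23.7 FPKM in Gcon. In both genes no libraries overlapped. The summed FPKM of the list was 74162, 59810.2, 70596, 68896 and 37470.0 in G3W, against a lowest, median and highest sum of 22587, 32341 and 34265 in Gcon. The median difference of the list was 1.32 log2 units in D3W against Dcon and 0.79 in G8W against Gcon.

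Genes of the synapse leaned the other way. Of 46 members that act in synaptic vesicle release, 10 had a higher fitted value in G3W, against 58.4% of all members, and the median of the 46 was −0.40 log2 units. In 8 the unadjusted p was under 0.05 on the lower side, against 1.98% of all members, and in 1 on the higher side, against 5.26%. Of the 46, 0 passed the adjusted test (smallest adjusted p 0.331). NSF, the ATPase that takes fusion complexes apart, averaged 81.4 ± 52.6 FPKM in G3W and 286 ± 174 FPKM in Gcon. syn2b, a synapsin gene of the vesicle surface, averaged 9.85 ± 3.30 FPKM in G3W and 30.6 ± 15.5 FPKM in Gcon, without overlap. Of 36 glutamate receptor members 10 had a higher fitted value (median −0.38), and of 63 potassium channel members 17 did (median −0.27). In both lists 0 passed.

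Receptors for the inhibitory transmitters also leaned lower as a list. Of 26 GABA and glycine receptor members 9 had a higher fitted value, against 58.4% of all members. The median was −0.18 log2 units, and 0 passed. The members of smallest p went against the list's direction. Of these, gabrr3b, a GABA receptor rho subunit gene, was at 49.97, 52.9, 117, 47.1 and 41.8 FPKM in G3W, against 0, 2.91 and 32.01 FPKM as lowest, median and highest in Gcon (adjusted p = 0.133). GLRA2, a glycine receptor alpha subunit gene, was at 4.14 to 32.1 FPKM in G3W and 0 to 3.32 FPKM in Gcon (adjusted p = 0.145). In both genes the groups did not overlap.

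**Figure D4:**
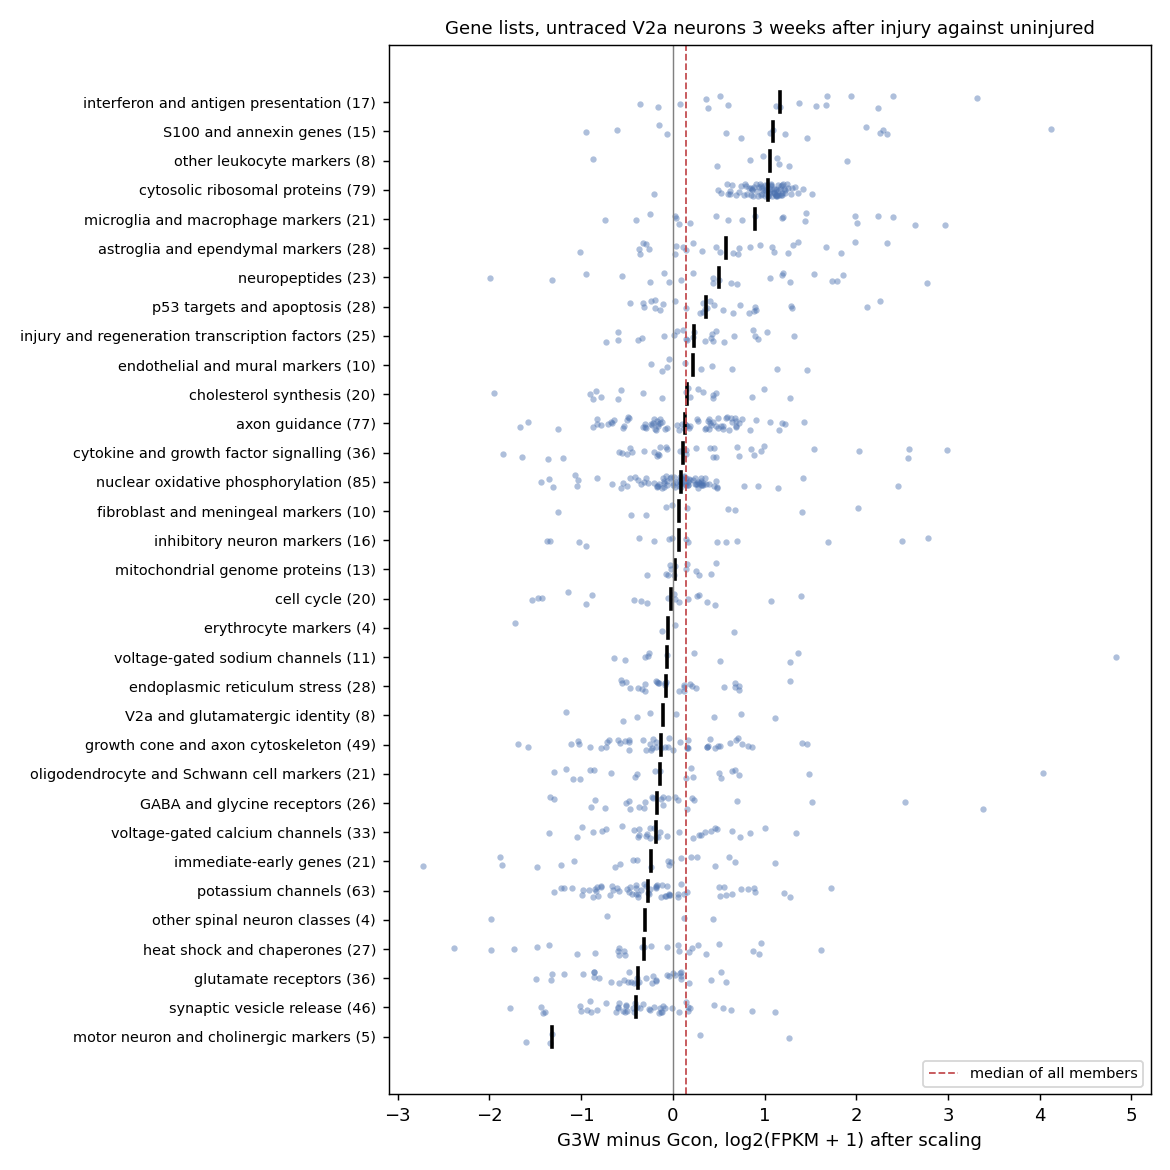
The fitted difference G3W minus Gcon on the log2(FPKM + 1) scale of every member of each gene list (points), with the median of the list (black bar) and of all members (dashed line); list sizes are in parentheses. The ribosomal protein genes sit close together near 1, and the lists of interferon, S100 and microglia genes have higher medians than all members but spread widely.

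The immune lists had higher medians than all members. Against 58.4% of all members, 15 of 17 interferon and antigen presentation members had a higher fitted value (median 1.16 log2 units). Of these, b2m passed. The immunoproteasome subunit gene PSMB10 averaged 51.5 ± 20.6 FPKM in G3W and 22.4 ± 17.8 FPKM in Gcon (adjusted p = 0.492). isg15, an interferon-induced ubiquitin-like gene, was at 24.1 to 85.9 FPKM in G3W, but at 343.1 FPKM in Gcon replicate 4 and at most 5.71 FPKM in the other Gcon libraries (adjusted p = 0.475). Of 21 microglia and macrophage members 18 had a higher fitted value (median 0.90), and 0 passed. itgb2, a leukocyte integrin gene, was at 2.48 to 38.4 FPKM in G3W and 0 to 3.57 FPKM in Gcon (adjusted p = 0.166).

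The summed FPKM of the microglia list was 717, 1325, 1222, 4055 and 2699.6 in G3W, against a lowest, median and highest sum of 72.3, 484 and 2985 in Gcon. Gcon replicates 1 and 4, at 2985 and 2342, were the highest Gcon libraries. They also had the highest Gcon sums of the interferon list, 2695 and 2056, but both lists hold cd74a and cd74b. Without these 2 genes the interferon sums were 1671, 1242, 1040.5, 892 and 688 FPKM in G3W, against 1037 and 1043 FPKM in Gcon replicates 1 and 4 and 162 to 473 FPKM in the other Gcon libraries. Within G3W b2m was highest in replicate 1, where the microglia sum was lowest. It was lowest in replicates 4 and 5, where the microglia sums were highest. Within Gcon b2m was highest in replicate 1, at 263 FPKM, where the microglia sum was highest too. It was at 167 FPKM in Gcon replicate 2, where that sum was lowest. MPEG1 (ENSDARG00000055290), a macrophage gene, was at 0.869 to 20.6 FPKM in G3W and 0 to 49.4 FPKM in Gcon. The part of immune cells in the values of b2m, adam8a and the interferon list was not tested. In sorted bulk samples more cells of a type and more RNA per cell cannot be told apart.

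Markers of myelin, astroglia and inhibitory neurons were found in both groups, with myelin genes at high levels. The summed inhibitory neuron list and the summed V2a and glutamatergic list were below the summed myelin list in both groups. The inhibitory sum was at 100 to 582 FPKM in G3W and 122 to 609 FPKM in Gcon, and the groups overlapped. The V2a and glutamatergic sum was at 521 to 1211 FPKM in G3W and 685 to 1432 FPKM in Gcon. The inhibitory sum was 332 beside 521 FPKM in G3W replicate 4, and 100 beside 884 FPKM in G3W replicate 3. mbpa, a myelin gene, averaged 3197 ± 1425 FPKM in G3W and 4830.1 ± 3341 FPKM in Gcon. The summed oligodendrocyte and Schwann cell list ran from 3844 to 11058 FPKM in G3W and from 2535 to 22964 FPKM in Gcon. pmp22a, a peripheral myelin protein gene, was at 31.4, 7.77, 25.0, 16.2 and 53.5 FPKM in G3W and listed at 0 in all Gcon libraries, but did not pass (adjusted p = 0.0966). Of 28 astroglial and ependymal members 22 had a higher fitted value (median 0.58), against 58.4% of all members, and 0 passed. The summed FPKM of that list did not lean higher. It was 1800 to 2524 in G3W (median 2034) and 1071 to 3733 in Gcon (median 2562). GFAP was at 1.26 to 40.0 FPKM in G3W and 0 to 17.05 FPKM in Gcon. GAD2, of the GABA-making enzyme, was at 4.35 to 24.05 FPKM in G3W and 0.153 to 46.6 FPKM in Gcon. The motor neuron and cholinergic list had the lowest median of the gene lists. Of its 5 members 2 had a higher fitted value, the median was −1.31 log2 units, and 0 passed (smallest adjusted p 0.827). That median lay between −1.44 and −1.06 in the alternatives. The summed FPKM of this list was 58.1 to 173 in G3W and 140.5 to 412 in Gcon, and the groups overlapped. Its member CHAT, of acetylcholine synthesis, was at 21.5 to 40.3 FPKM in G3W and 58.9 to 88.8 FPKM in Gcon, without overlap (adjusted p = 0.854).

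**Figure D5:**
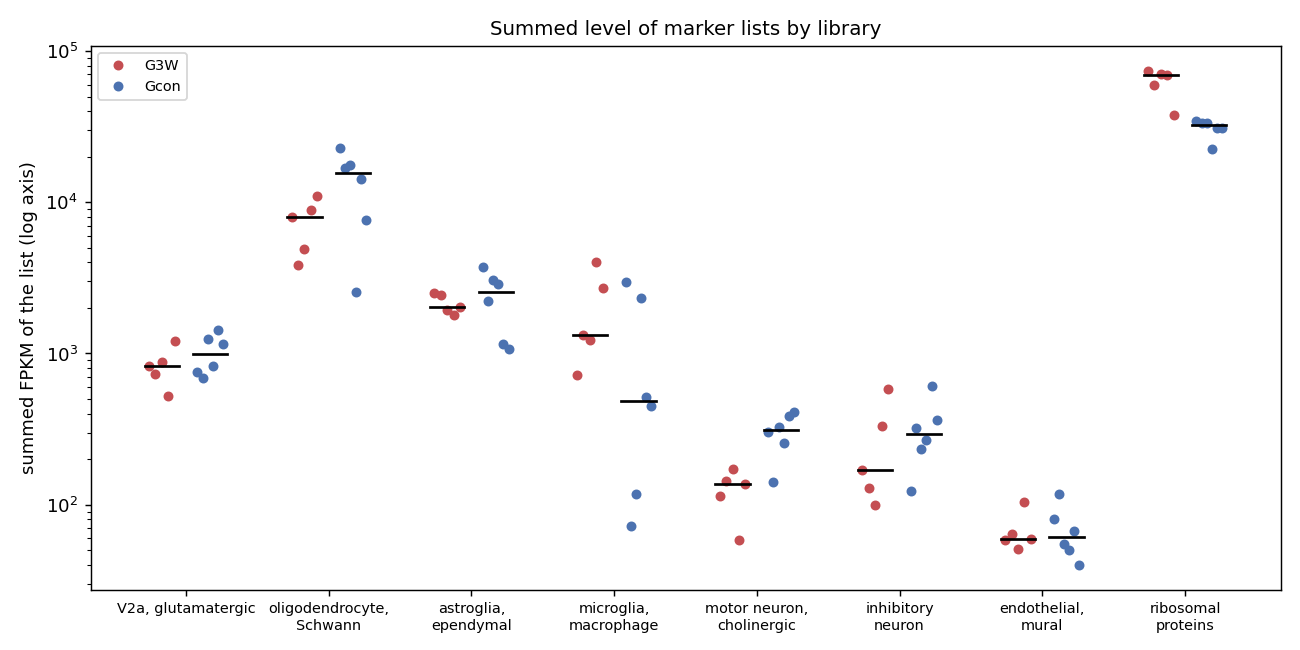
Summed FPKM of 8 gene lists in each library on a log axis, with the median of each group as a bar; G3W is on the left of each pair and Gcon on the right. Only the ribosomal protein sums separate the groups, with all 5 G3W libraries above the 6 Gcon libraries; the microglia sums of Gcon run from 72.3 to 2985.

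Known injury-response genes showed no call. Of 25 injury and regeneration transcription factor members 19 had a higher fitted value (median 0.23), against 58.4% of all members, and 0 passed. ATF3, a stress transcription factor, was at 101, 106, 106, 22.6 and 35.8 FPKM in G3W, against 21.1, 44.7 and 115 FPKM as lowest, median and highest in Gcon (adjusted p = 0.947). SOX11 (ENSDARG00000077811) averaged 118 ± 29.5 FPKM in G3W and 76.6 ± 28.3 FPKM in Gcon (adjusted p = 0.893). gap43, a growth cone gene, averaged 346 ± 149 FPKM in G3W and 213 ± 66.2 FPKM in Gcon (adjusted p = 0.929). Of 49 growth cone and axon cytoskeleton members 20 had a higher fitted value (median −0.13), and 0 passed.

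S100 and annexin genes, which bind calcium, had a higher median than all members. Of 15 S100 and annexin members 11 had a higher fitted value (median 1.09), against 58.4% of all members. In 5 the unadjusted p was under 0.05 on the higher side, against 5.26% of all members, and 0 passed (smallest adjusted p 0.379). ANXA2, a membrane-binding annexin, was at 158, 139, 18.04, 72.5 and 118 FPKM in G3W, against 0, 3.05 and 31.2 FPKM as lowest, median and highest in Gcon. The 36 cytokine and growth factor members had a median of 0.11 log2 units, under the 0.14 of all members, with 19 higher in the fit and 0 past the test. The 3 of smallest p had higher values in G3W. igf2b, a growth factor gene, was at 6.03 to 25.5 FPKM in G3W and 0 to 3.35 FPKM in Gcon (adjusted p = 0.0895). SOCS3 (ENSDARG00000026611), an inhibitor of cytokine signalling, averaged 21.3 ± 9.03 FPKM in G3W and 4.35 ± 6.08 FPKM in Gcon (adjusted p = 0.379). crlf1a, of a cytokine that acts on neurons, was at 0.145 to 35.0 FPKM in G3W and 0 to 2.41 FPKM in Gcon (adjusted p = 0.438).

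Immediate-early and heat shock genes leaned lower in G3W as lists, and immediate-early genes differed among the libraries of both groups. Whether these levels reflect neuronal activity was not tested. Of 21 immediate-early members 7 had a higher fitted value (median −0.24), and of 27 heat shock and chaperone members 11 did (median −0.32), with 0 passing in either list. Over all members 58.4% had a higher fitted value. egr4, a transcription factor gene that activity switches on, was at 229, 232, 144, 10.8 and 13.8 FPKM in G3W, against 104, 776 and 1048 FPKM as lowest, median and highest in Gcon (adjusted p = 0.454). NPAS4, of the same kind, was at 91.8, 84.9, 74.7, 14.5 and 2.24 FPKM in G3W and 49.0 to 254 FPKM in Gcon. G3W replicates 4 and 5 were the lowest of the 11 libraries for both genes. They also had the lowest sums of the immediate-early list, 569 and 505 FPKM, and the highest G3W sums of the microglia list.

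The lists of energy genes did not shift as a whole. The 13 mitochondrial genome members had a median of 0.02 log2 units and the 85 nuclear oxidative phosphorylation members one of 0.09, with 0 passing in both. The ATP synthase genes ATP5F1A and ATP5F1B averaged 217 ± 64.9 and 346 ± 114 FPKM in G3W, against 605 ± 370.2 and 741 ± 302 FPKM in Gcon (adjusted p = 0.282 and 0.422).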

How the data were processed

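RNA of sorted cells was made into libraries with the SMART-Seq v4 low-input kit and a NEBNext kit, per the labels' protocols. The authors deposited 1 table of FPKM for 42370 genes, 31901 with Ensembl IDs and 10469 assembled. HISAT2 2.0.5, HTSeq 0.9.1 and danRer11 are named without roles in the submitters' processing notes. Strand use in counting is not given in the sources used here. Symbols came from a table of gene names, and 1719 symbols are shared by several IDs.

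FPKM were divided by median-ratio factors (6387 genes at 1 FPKM or more in 28 libraries, pseudocount 0.1) and taken as log2(FPKM + 1), which understates changes of low genes. Differences on this scale are called log2 units. Genes at 1 FPKM or more in 5 of 32 libraries were tested, 22552 in all. One limma 3.58.1 model (R 4.3.3, trend, robust) with 6 group means was fitted, with Benjamini-Hochberg adjustment and a threshold of 0.05; tests are two-sided. Group values are means and SD of deposited FPKM. Genes detected and mitochondrial shares were compared by exact permutation tests (scipy 1.17.1). The fit was tested on simulated data. Depth was inferred from the steps of low FPKM values, so floors are approximate and cover counting error only.

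The members and the 33 gene lists were chosen with earlier results of these data known. Named were passing members that averaged 5 FPKM or more where higher, filled to 8 per direction by smallest p, up to 4 passing members per list, and fixed marker and injury genes. For lists with fewer than 3 passing members the genes of smallest p, and a few further members and the 18 muscle genes, were added after their values were seen. No sequences or positions are given, and some named genes are not reported here. Alternatives were another pseudocount, no filter, only members tested, FPKM as deposited, quantile normalization, array weights, fewer groups, a replicate block, a fold threshold, no trend, and each library left out; 3 were added after seeing the data (detected genes as a covariate, leaving out Gcon replicates 1 and 4, and the compared groups with a block).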

Additional observations from a re-analysis of the deposited data

Results flagged for a closer look

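The 255 groups of values checked were those of the named genes, as scaled log2(FPKM + 1), of genes detected and of mitochondrial share. In each, the highest or lowest library was checked for standing apart from the rest (Dixon's ratio at 95%). For normally distributed values chance gives this in about 1 group in 20. A library stood apart in 13 groups, all of named genes. For DGAT2, GLRA2, crlf1a and Novel01966 all other libraries of the group were at 0. Any value above 0 was flagged there, so that rate does not apply to them. In G3W, SOX14 (ENSDARG00000070929) and GAD1 (ENSDARG00000093411) were highest in replicate 5, at 249.7 and 8.99 FPKM. In G3W replicate 4, AQP3 and DRGX were highest, at 1.74 and 4.85 FPKM, and SOX11 (ENSDARG00000077811) was lowest, at 65.8 FPKM. GRM7 (ENSDARG00000100267) stood at 7.38 FPKM in G3W replicate 1, gabrr3b at 116.9 FPKM in replicate 3, and DGAT2 at 0.0864 FPKM in replicate 5, where the other 4 were at 0. In Gcon, Novel01966 stood at 0.496 FPKM in replicate 3 and isg15 at 343.1 FPKM in replicate 4. GLRA2 at 3.32 and crlf1a at 2.41 FPKM were above 0 in Gcon replicate 6 alone, and tmsb was lowest in Gcon replicate 1, at 1.78 FPKM.

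The untraced and traced changes at 3 weeks differed by the interaction test for 1 gene, 5S_rRNA (ENSDARG00000108569), by 6.32 log2 units (adjusted p = 0.0317 with limma).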

How the results depend on the processing

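The 15 members called in G3W against Gcon became 28 with FPKM as deposited, 96 with array weights, 7 without a filter, 7 without trend or robust fitting, 2 against a log2 fold of 1, 8 with detected genes as a covariate and 4 with the compared groups and a replicate block; leaving out 1 library gave 7 to 18. The fewest remained without G3W replicate 1 (7), Gcon replicate 6 (8), and G3W replicate 2 or Gcon replicate 1 (9 each). A replicate block over all groups gave 11 calls. Same-numbered G3W and Gcon libraries correlated at 0.00289 to 0.167 in their deviations. These few low values show no strong pairing by number, but they cannot exclude a batch shared by libraries of the same number. The single interaction call went to 0 without a filter, against a log2 fold of 1, with the covariate and without Gcon replicates 1 and 4, and to 0 to 1 without 1 library. The single call of G8W against G3W went to 0 with quantile normalization, with only the groups compared and against a log2 fold of 1, to 2 with only members tested, FPKM as deposited or 3 untraced groups, to 10 with array weights, and to 0 to 3 without 1 library. The difference in genes detected was 489 at 5 FPKM (exact permutation p = 0.195) and 1815 to 3294.8 without 1 library. That in mitochondrial share was −0.0371 percentage points without G3W replicate 4, in a range to 1.70. The cause of these changes was not tested.

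Medians of some lists turned sign, in up to 9 of 25 alternatives (inhibitory neuron and erythrocyte markers). Nuclear oxidative phosphorylation turned in 6, cytokine signalling in 5, V2a identity in 2, and immediate-early genes and all members in 1 each. The ribosomal, synaptic vesicle, interferon and microglia medians turned in 0. Among the named genes, signs turned for uncalled ones only. GAD1 (ENSDARG00000027419; −0.04 log2 units) was 0.37 with a pseudocount of 0.1, 0.0472 with a replicate block and 0.17 with the compared groups and a block, and −0.53 to 0.46 without 1 library. GAD2 (−0.01) was 0.32, 0.27 and 0.22 there, 0.00995 with FPKM as deposited, and −0.57 to 0.39 without 1 library. cahz (−0.12) was 0.16 with array weights, 0.54 with the covariate, 0.21 without Gcon replicates 1 and 4, and −0.45 to 0.18 without 1 library. SLC6A5 (0.70) was −0.28 with the covariate, and JUN (−0.34) was 0.0697 without G3W replicate 4, in a range from −0.75.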
